A study of Mus musculus with 6 samples.

Results

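A set of 32 genes of DNA replication and S phase was followed in LT-HSC, the long-term haematopoietic stem cells, of Itpkb-/- and wild-type (WT) mice. They were taken by name from the deposited table, in which all 32 were found among the 15599 genes with a read in any library. All 32 also passed the filter on low values and so were among the 12008 genes tested. The tested mice carried the ENU-induced allele Ms T-less of Itpkb, the gene of inositol-trisphosphate 3-kinase B (genotype spelled IPTKB-/- in the labels), and the controls were their WT littermates, all on the C57BL/6 background. The mice were matched for age, with no age stated, and no restriction of the mutation to a cell type was stated. Each of the 3 Itpkb-/- and 3 WT libraries came from pooled marrow of 4 mice, from which at least 10000 cells were sorted as lineage-negative, Sca-1+ Kit+, CD34-, CD150+, CD48- and Flk2-.

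Before a cell copies its DNA, the origin recognition complex with Cdc6 and Cdt1 loads the ring-shaped MCM helicase onto origins. Cdc45 and the GINS complex then switch the helicase on, and polymerase alpha-primase, the sliding clamp PCNA and its loader RFC carry synthesis forward. Many of these genes are transcribed under E2F factors as cells leave G1. LT-HSC are known as mostly quiescent cells, in which such transcripts are low on average because few cells are in S phase at any time.

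The promoter sequences of the members were searched for the E2F motif. RefSeq (GRCm38.p6, the same assembly as mm10) gave promoters for 28 of the members, 35 promoters in all, each covering 250 bases before to 50 bases after a transcript start. The E2F motif was searched as TTTCCCGC, TTTCGCGC, TTTGCCGC and TTTGGCGC on both strands. It was found in 13 of the 28 genes (46.4%), against 4.8% of genes tested and 2.6% of all genes in the promoter table. The CCAAT box (CCAAT, both strands) was in 60.7% of the members, 43.2% of genes tested and 41.1% of all genes in the promoter table. The CHR element of late cell cycle genes (TTTGAA or TTCGAA, both strands) was in 21.4% of the members, 16.4% of genes tested and 21.7% of all genes in the promoter table. GC content, which moves such counts, had a median of 57.7% in member promoters and 60.7% in those of genes tested. The stretches below run from 170 bases before to 30 bases after the start, 5′ to 3′ in the direction of the gene, with matches to the E2F motif in capitals. They show 3 helicase subunits whose promoters hold matches, and Prim1 and Tk1, which rose in Itpkb-/- cells and hold none in the whole promoter.
Mcm5 (chr8:75109339-75109538, plus strand): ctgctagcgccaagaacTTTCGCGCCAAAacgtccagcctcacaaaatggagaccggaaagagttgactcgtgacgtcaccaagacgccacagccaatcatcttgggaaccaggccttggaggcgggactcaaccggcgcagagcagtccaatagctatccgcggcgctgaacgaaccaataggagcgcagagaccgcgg
Mcm6 (chr1:128359676-128359875, minus strand): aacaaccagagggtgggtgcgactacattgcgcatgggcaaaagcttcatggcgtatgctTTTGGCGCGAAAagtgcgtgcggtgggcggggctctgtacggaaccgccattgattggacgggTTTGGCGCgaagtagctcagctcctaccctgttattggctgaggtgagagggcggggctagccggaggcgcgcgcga
Mcm7 (chr5:138171854-138172053, minus strand): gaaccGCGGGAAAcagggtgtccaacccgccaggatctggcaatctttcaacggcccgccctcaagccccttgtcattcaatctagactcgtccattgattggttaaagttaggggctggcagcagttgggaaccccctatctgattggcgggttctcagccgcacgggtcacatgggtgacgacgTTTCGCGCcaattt
Prim1 (chr10:128015045-128015244, plus strand): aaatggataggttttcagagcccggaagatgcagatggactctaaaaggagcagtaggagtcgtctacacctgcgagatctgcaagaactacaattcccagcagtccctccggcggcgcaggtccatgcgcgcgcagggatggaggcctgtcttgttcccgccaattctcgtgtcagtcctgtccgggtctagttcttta
Tk1 (chr11:117825985-117826184, minus strand): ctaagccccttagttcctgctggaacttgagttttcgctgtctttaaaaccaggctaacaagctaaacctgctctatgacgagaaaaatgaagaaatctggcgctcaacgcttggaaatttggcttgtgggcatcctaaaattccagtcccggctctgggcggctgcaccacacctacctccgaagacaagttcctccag

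In Mcm5 and Mcm6 the motif stands in overlapping matches on opposite strands, whose first bases lie at -153 and -149 in Mcm5 and at -110 and -106 in Mcm6, counted back from the start. Mcm6 has another match at -47, and Mcm7 has its matches at -165 and, after the start, at 17. Mcm7 has another listed promoter, with no match. Among the 12 members that passed the test with the replicate block described below, 7 had a match, and among the 16 other members with a promoter 6 had one. These counts are per gene. Of the 12, Dnmt1, Lig1, Fen1 and Mcm7 have additional listed promoters, and of the 16 only Uhrf1 does. More sequence per gene was therefore searched among the 12, and whether the groups differ was not tested. A match describes these letters only, and none of the promoters was assayed.

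Most replication transcripts had a higher mean level in Itpkb-/- LT-HSC than in WT cells, by small amounts that passed the test in few of them. Of the 32 members, 30 had a positive log2 difference, against 50.2% of all genes tested, and their median log2 difference was 0.27, against 0.00 for all genes tested. Differences are of log2(normalized CPM + 1), Itpkb-/- minus WT, where normalized CPM is the library-scaled count (CPM) after the authors' factors, and this scale understates the change of low genes. Of these, 3 members rose and none fell (limma, adjusted p of 0.15 or less, Benjamini-Hochberg over all genes), by the false discovery limit given for the study. These were Mcm7, Prim1 and Tk1, and by the same rule 2.27% of all genes tested rose and 3.24% fell. With the limit set at 0.05 none of the members passed (limma, 0.616% of all genes rose), while 8 had an unadjusted p under 0.05, as did 15.5% of all genes. With edgeR on recovered reads the same 3 rose at 0.15, against 2.45% of all genes. Members were measured at 38 to 3691 reads per library, so none was near the detection floor of 3 reads.

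In each genotype the labels give library numbers 1, 2 and 3, and same-numbered libraries deviated together. When the number was kept as a replicate block, 12 members rose and none fell, where 9.15% of all genes rose and 8.97% fell. These 12 were Mcm3, Mcm5, Mcm6, Mcm7, Pola1, Prim1, Fen1, Lig1, Rrm1, Rrm2, Tk1 and Dnmt1. Of the 32 members, 20 were higher in the Itpkb-/- pool of all 3 same-numbered pairs, as were 21.8% of all genes tested. All 3 Itpkb-/- libraries lay above all 3 WT libraries in 10 members (10.0% of all genes tested) and below them in none (11.3% of all genes tested). In bulk RNA a larger share of cells in S phase and more replication RNA in each cell cannot be told apart.

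**Figure D1:**
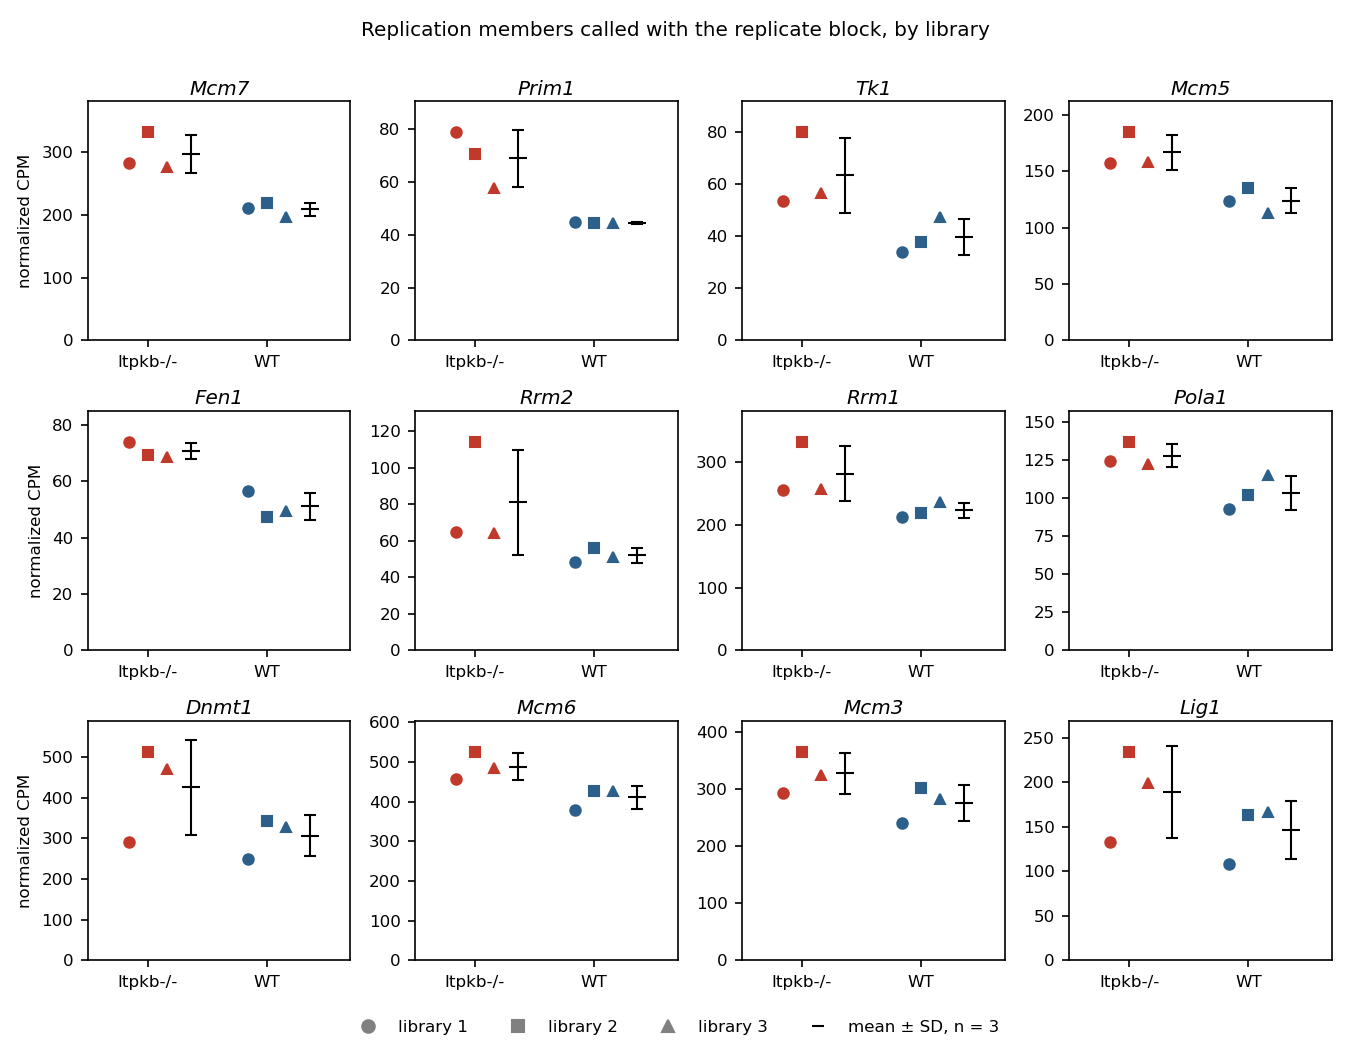
Normalized CPM (vertical axis, from 0) of the 12 replication members that passed with the replicate block, in the 3 Itpkb-/- and 3 WT libraries; symbols mark the library number and black bars the mean ± SD (n = 3). In 9 of the 12 panels all Itpkb-/- libraries lie above all WT libraries, and in Lig1, Dnmt1 and Mcm3 the genotypes overlap.

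The MCM helicase is a ring of 6 different subunits, and all 6 had positive differences. Mcm7 (chromosome 5, 138164583 to 138172422, minus strand, mm10) was at 283.4, 332.4 and 276.8 normalized CPM in Itpkb-/- pools 1, 2 and 3, against 211.4, 218.5 and 197.3 in the WT libraries. The lowest Itpkb-/- library stood clear of the highest WT library. The means were 297.5 ± 30.4 in Itpkb-/- and 209.1 ± 10.8 in WT cells (SD, n = 3 each), and the difference on the log2 scale was 0.50 (SE 0.12, limma, adjusted p = 0.0786). Mcm7 is the host of the microRNAs Mir25 and Mir93, and 7.25% of its exon bases overlap Ap4m1 on the opposite strand, which libraries that do not mark strand cannot separate.

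Mcm5 was at 157.0, 184.8 and 158.5 normalized CPM in the 3 Itpkb-/- pools and at 123.6, 135.1 and 113.4 in WT libraries. The genotypes did not overlap, and the log2 difference of 0.42 (SE 0.13) narrowly missed the limit (limma, adjusted p = 0.151, and 0.0208 with the block). Mcm6 had 456.5, 525.1 and 483.7 normalized CPM in the 3 Itpkb-/- pools and 377.99, 427.7 and 426.7 in WT libraries. Its log2 difference was smaller, at 0.25 (limma, adjusted p = 0.350, and 0.0868 with the block), though again every Itpkb-/- library was above every WT library.

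Mcm3 had 293.6, 365.0 and 324.6 normalized CPM in the 3 Itpkb-/- pools against 240.7, 302.5 and 281.8 in WT libraries, with an overlap between Itpkb-/- library 1 and WT library 2. Its log2 difference of 0.25 passed only with the block (limma, adjusted p = 0.409, and 0.0963 with the block). Mcm4 stood at 209.3, 208.9 and 193.4 in the Itpkb-/- pools and at 163.6, 186.4 and 173.3 in WT libraries. Mcm4 did not overlap between genotypes but passed neither fit (limma, log2 difference 0.22, adjusted p = 0.405, and 0.185 with the block). Mcm2, at 214.3, 253.6 and 223.98 in the Itpkb-/- pools and 189.2, 201.8 and 215.8 in WT libraries, had the smallest difference of the ring, 0.19 with a 95% interval of -0.09 to 0.46.

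Since the ring holds 1 copy of each subunit, their levels were also set side by side per kilobase of exon. Per kilobase of all annotated exons, the Itpkb-/- means ran from 105 ± 7.64 normalized CPM for Mcm6 through 87.4 ± 9.53 for Mcm3, 67.2 ± 6.88 for Mcm7, 56.8 ± 2.51 for Mcm4 and 41.8 ± 3.93 for Mcm5 to 33.2 ± 2.97 for Mcm2. The WT means were 88.0 ± 6.09 for Mcm6, 73.3 ± 8.35 for Mcm3, 47.3 ± 2.44 for Mcm7, 48.6 ± 3.16 for Mcm4, 31.1 ± 2.7 for Mcm5 and 29.1 ± 1.9 for Mcm2. In WT cells Mcm4 and Mcm7, and likewise Mcm5 and Mcm2, differed by less than their spread. Mcm7 stood above Mcm4 in every Itpkb-/- library, while in WT libraries their order varied. The order depends on the length used: over the longest coding transcript the WT mean of Mcm2 was 60.0 and that of Mcm7 was 70.6, above the 48.6 of Mcm4, an alternative chosen after the data were seen. Mcm6 and Mcm3 remained the highest of the ring with either length.

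**Figure D2:**
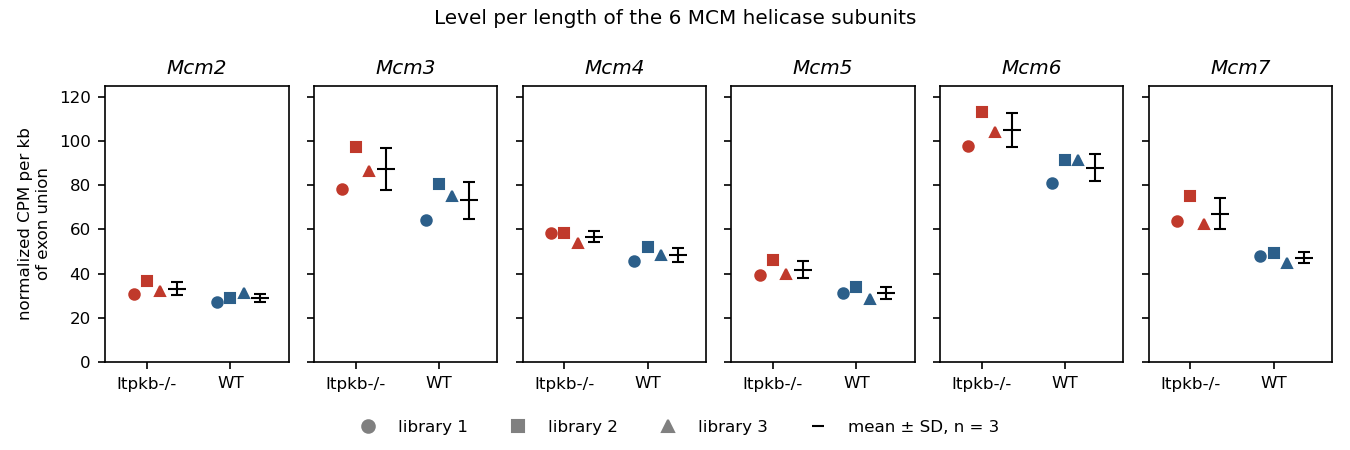
Level per kilobase of annotated exon (normalized CPM per kb, axis from 0) of the 6 MCM subunits in the 3 Itpkb-/- and 3 WT libraries, with library numbers as symbols and the mean ± SD (n = 3) as black bars. Mcm6 and Mcm3 stand highest and Mcm2 and Mcm5 lowest in both genotypes.

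The 6 genes that license and fire origins had positive differences, but none passed in either fit or with edgeR or DESeq2, and none had an unadjusted p under 0.05. Orc1 was the lowest of all members per kilobase of exon, at 4.9 ± 1.87 normalized CPM per kb in Itpkb-/- and 3.42 ± 0.611 in WT cells. Cdc6, a helicase loader, was at 33.0 to 41.3 normalized CPM in the 3 Itpkb-/- pools and at 16.2 to 37.7 in WT libraries, where WT library 1 alone was low. Its log2 difference of 0.46 had a 95% interval of -0.15 to 1.07, and without WT library 1 the difference was 0.11. Orc1, the largest subunit of the origin recognition complex, stood at 13.1, 24.6 and 13.5 in the Itpkb-/- pools, against 9.45, 12.9 and 13.4 in WT libraries, so that Itpkb-/- library 2 alone stood well above the others, and without it the log2 difference of 0.44 was 0.16. Cdc45 (log2 difference 0.39) and the GINS subunits Gins2 (0.40, and 0.17 without WT library 1) and Gins1 (0.27) also had intervals that included 0. Gins2 shares 67.3% of its exon bases with Gse1 on the opposite strand, so the reads of the 2 genes cannot be told apart there.

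Cdt1, the partner of Cdc6 in loading, was level between the genotypes. It was at 63.2, 69.0 and 64.1 normalized CPM in the 3 Itpkb-/- pools and at 59.7, 68.9 and 61.6 in WT libraries. Its log2 difference was 0.05, with a 95% interval of -0.27 to 0.36, which leaves room for a change of the size seen in Mcm3 or Mcm6.

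The polymerase alpha-primase complex lays the RNA-DNA primer from which every strand starts. Prim1, its catalytic primase subunit (chromosome 10, 128015168 to 128030037, plus strand), was at 78.9, 70.6 and 57.5 normalized CPM in the 3 Itpkb-/- pools, against 44.8, 44.2 and 44.3 in WT libraries. The WT libraries were nearly equal and all Itpkb-/- libraries lay above them. The means were 68.98 ± 10.7 in Itpkb-/- and 44.4 ± 0.285 in WT cells (SD, n = 3 each), and the log2 difference was 0.61 (SE 0.16, limma, adjusted p = 0.0995). Pola1, the polymerase subunit, stood at 124.2, 136.7 and 122.5 in the Itpkb-/- pools and at 92.8, 101.9 and 115.2 in WT libraries. It did not overlap either, and passed only with the block (limma, log2 difference 0.31, adjusted p = 0.303, and 0.116 with the block).

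The clamp and its loader did not pass in either fit. Pcna, the clamp that tethers polymerases and was the most abundant member per kilobase in both genotypes, had 424.5, 371.9 and 361.7 normalized CPM in the 3 Itpkb-/- pools and 297.2, 368.9 and 334.5 in WT libraries. The genotypes overlapped, and the log2 difference of 0.21 came mainly from the libraries numbered 1, with 0.51 in that pair, 0.01 in pair 2 and 0.11 in pair 3. Pcna has the annotated pseudogenes Pcna-ps1 and Pcna-ps2, so reads could be divided between copies. Among the loader subunits Rfc4 had a log2 difference of 0.26 and Rfc2 of 0.10. Rfc3 was at 21.4, 26.7 and 30.3 in the Itpkb-/- pools and 24.4, 30.3 and 23.6 in WT libraries, with a mean of 26.1 in both genotypes and a 95% interval of -0.46 to 0.45.

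Fen1 and Lig1, which finish the lagging strand, rose with the block. Fen1, the nuclease that trims flaps from Okazaki fragments, was at 73.8, 69.3 and 68.5 normalized CPM in the 3 Itpkb-/- pools, against 56.5, 47.2 and 49.3 in WT libraries. The genotypes were separate, with a log2 difference of 0.46 (limma, adjusted p = 0.153, and 0.0435 with the block), but 78.8% of the exon bases of Fen1 are shared with the antisense gene Gm10143. Lig1, the DNA ligase that seals the fragments, was at 132.9, 234.2 and 199.6 in the Itpkb-/- pools and at 108.7, 163.1 and 166.8 in WT libraries. The libraries numbered 1 were the low ones in both genotypes, so that the groups overlapped while each pair differed upward, by 0.29, 0.52 and 0.26 on the log2 scale (limma, adjusted p = 0.486, and 0.0472 with the block). Rpa2, a subunit of the single-strand binding protein, had a log2 difference of 0.21 that passed neither.

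Among genes of nucleotide supply, Tk1 rose in both fits and the ribonucleotide reductase genes with the block, while Tyms, Dut and Ung passed in neither. Tk1, the cytosolic thymidine kinase of the salvage pathway (chromosome 11, 117815526 to 117826092, minus strand), was at 53.6, 80.2 and 56.8 normalized CPM in the 3 Itpkb-/- pools, against 34.1, 37.8 and 47.5 in WT libraries. Library 2 was the highest Itpkb-/- library, and the other two were still above all WT libraries. The means were 63.5 ± 14.5 in Itpkb-/- and 39.8 ± 6.91 in WT cells (SD, n = 3 each). The log2 difference of 0.65 was the largest of all members (SE 0.20, limma, adjusted p = 0.141). The Tk1 call was lost with plain CPM (limma, adjusted p = 0.180), quantile normalization (0.160), no filter on low values (0.192) and a stricter filter (0.154), and the direction was kept. Without limma's mean-variance trend the calls of Tk1 (adjusted p = 0.235), Mcm7 (0.205) and Prim1 (0.169) were all lost.

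Rrm2, the S-phase subunit of ribonucleotide reductase, had 64.9, 114.1 and 64.2 normalized CPM in the 3 Itpkb-/- pools and 48.5, 56.2 and 51.2 in WT libraries. Its log2 difference of 0.58 passed only with the block (limma, adjusted p = 0.219, and 0.0287 with the block), and without Itpkb-/- library 2 it was 0.31. Rrm1, the catalytic subunit, had 256.6, 332.7 and 257.9 in the Itpkb-/- pools and 213.6, 219.7 and 236.8 in WT libraries. It was separate between genotypes in the same way, with library 2 on top (limma, log2 difference 0.33, adjusted p = 0.277, and 0.0677 with the block).

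Tyms, thymidylate synthase of the de novo pathway, was at 64.3, 71.0 and 54.4 normalized CPM in the 3 Itpkb-/- pools and at 51.5, 60.2 and 59.8 in WT libraries. The groups overlapped, and its log2 difference was 0.14 (95% interval -0.21 to 0.49). Tyms has a pseudogene, Tyms-ps. Dut, the dUTPase that keeps uracil out of DNA, had a log2 difference of 0.25. Ung, the glycosylase that removes uracil, was at 69.9, 81.4 and 80.9 in the Itpkb-/- pools and at 79.6, 81.2 and 92.9 in WT libraries. With a log2 difference of -0.13 (95% interval -0.44 to 0.19) it was, beside Rfc3, the only member that was not positive.

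**Figure D3:**
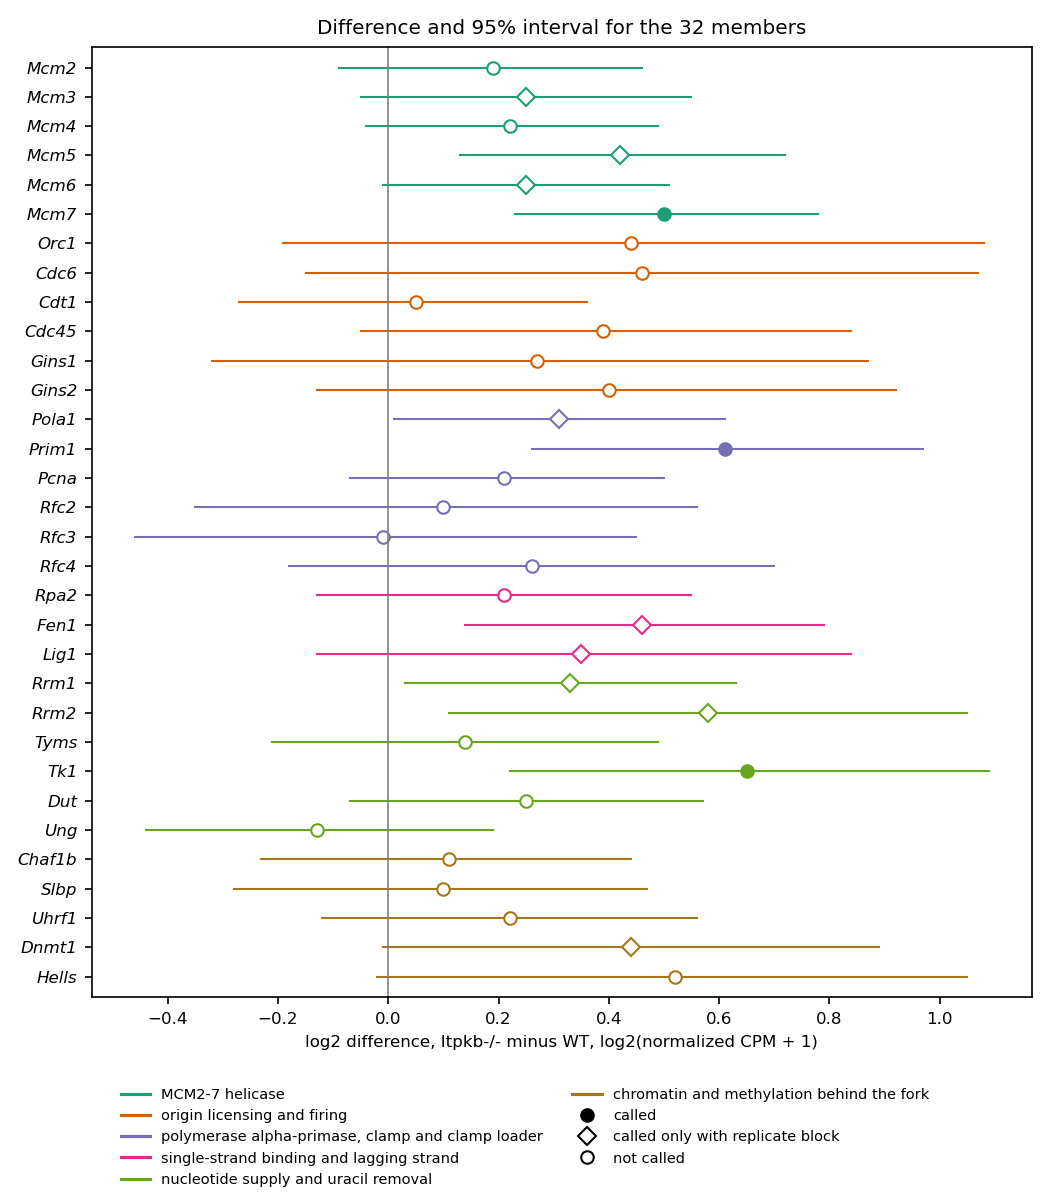
Log2 difference, Itpkb-/- minus WT, with its 95% interval from limma for each of the 32 members, coloured by role (horizontal axis, log2(normalized CPM + 1) scale). Filled circles passed at an adjusted p of at most 0.15, open diamonds passed only with the replicate block, and open circles passed neither; all but Rfc3 and Ung lie to the right of 0.

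A group of 5 members acts on chromatin and DNA methylation behind the fork, and of these Dnmt1 alone passed, with the block. Dnmt1, the maintenance DNA methyltransferase, was at 291.9, 512.2 and 470.9 normalized CPM in the 3 Itpkb-/- pools and at 249.7, 342.6 and 327.3 in WT libraries. As in Lig1, the libraries numbered 1 were lowest in each genotype, and the pairs differed by 0.22, 0.58 and 0.52 on the log2 scale (limma, log2 difference 0.44, adjusted p = 0.335, and 0.0110 with the block). Uhrf1, which brings Dnmt1 to newly made DNA, had a difference of 0.22. Hells, a chromatin remodeller needed for DNA methylation, had 0.52 (95% interval -0.02 to 1.05), with pairs at 1.30, 0.35 and -0.10, and without WT library 1 it had 0.24. Chaf1b of the histone chaperone CAF-1 and Slbp, which binds histone mRNA, had 0.11 and 0.10.

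The members did not carry the difference equally in each library. Itpkb-/- library 2 was the highest library in 20 of the 32 members (62.5%), against 21.3% of all genes tested, and WT library 1 was the lowest in 21 (65.6%), against 21.5%. WT library 1 was also the shallowest, with 4024203 reads, in a range of 4777870 to 7470329 reads in Itpkb-/- and 4024203 to 6597505 in WT libraries. The 32 members together took 0.405% to 0.498% of the reads in Itpkb-/- libraries and 0.338% to 0.400% in WT libraries. By pair, 27, 29 and 25 of the 32 members were higher in Itpkb-/- libraries 1, 2 and 3 than in the same-numbered WT library, with medians of 0.35, 0.36 and 0.14 on the log2 scale. Among all genes tested 51.0%, 49.7% and 49.7% were higher in those pairs. Without Itpkb-/- library 2 none of the members passed (limma, 0.945% of all genes rose) and their median was 0.21, with 5 members at an unadjusted p under 0.05. None passed either without WT library 1, 2 or 3, where 1.13%, 0.954% and 0.301% of all genes rose (limma). In these 3 fits the members' median was 0.19, 0.31 and 0.32, and 5, 8 and 8 members had an unadjusted p under 0.05. The share of all genes under 0.05 was taken only with all libraries, at 15.5%. The member counts at that limit without 1 library thus have no matching share and are not read as a result. Without 1 library the highest adjusted p (limma) was 0.329 for Mcm7, 0.309 for Prim1 and 0.390 for Tk1. Without Itpkb-/- library 1, 6 members rose (Mcm5, Mcm7, Lig1, Rrm2, Tk1 and Dnmt1), against 3.09% of all genes. Without Itpkb-/- library 3 Mcm7 and Prim1 rose, against 2.78% of all genes.

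Markers of other blood cells also differed between the genotypes. Beside the counts below, of all genes tested 50.2% had positive differences, 2.27% rose and 3.24% fell (limma). With the block 9.15% rose and 8.97% fell, and with DESeq2 3.24% rose. An unadjusted p under 0.05 was found in 15.5% of all genes tested (limma). Of 17 granulocyte markers 16 had positive differences. None passed in limma without the block or in edgeR, with 1 at an unadjusted p under 0.05 (limma), while 15 rose with the block and 2 with DESeq2 (Ctsg and Ms4a3, named after their values were seen). Without Itpkb-/- library 2 none rose and 1 fell (limma), and their median was 0.39, against 1.08 with all libraries. Their summed level was 1158 to 19450 normalized CPM in the 3 Itpkb-/- pools against 1036 to 4168 in WT libraries. The top of this range was library 2, where Mpo stood at 8729 and Elane at 1303, and in Itpkb-/- library 3 Mpo was at 88.5 and Elane at 10.8. S100a8, a neutrophil gene, had 2132, 2232 and 207.2 in the Itpkb-/- pools and 1149, 510.7 and 165.1 in WT libraries. WT library 1, in which most replication members were lowest, had the highest granulocyte sum of the WT libraries. The part of these markers in the replication result was not tested. In the pair numbered 3, where the granulocyte list mean differed by 0.29 on the log2 scale, against 0.85 and 2.40 in pairs 1 and 2, the replication list mean differed by 0.18, against 0.34 and 0.38. Of 13 multipotent progenitor markers tested, of which 3 are genes of the sort gate, 5 rose and 2 fell (7 and 2 with the block), with summed levels of 654.6 to 953.5 in Itpkb-/- and 400.0 to 512.2 in WT libraries. Of 16 HSC markers none rose and 8 fell (11 with the block), with sums of 1514 to 2269 in Itpkb-/- and 2723 to 3348 in WT libraries. Erythroid markers summed to 857.6 to 1510 in Itpkb-/- and 1233 to 1760 in WT libraries, with 2 of 16 higher and 1 lower (5 and 4 with the block). Megakaryocyte markers summed to 2197 to 3526 in Itpkb-/- and 2290 to 2414 in WT libraries, with 5 of 14 higher and 1 lower (7 and 2 with the block). Few markers of the last 3 lists were high enough to be tested in limma. These were 7 of 13 macrophage and dendritic, 3 of 11 T and NK cell, and 2 of 12 B cell markers. None of them passed in limma without the block, edgeR or DESeq2, with 1, 1 and 0 at an unadjusted p under 0.05 (limma). With the block 3 macrophage and dendritic markers (Ly6c2, Vcam1 and Ccr2) and Nkg7 of the T and NK cell list rose, all named after their values were seen. Itpkb-/- library 2 was highest in Vcam1 (40.7, against 1.31 in Itpkb-/- libraries 1 and 3), Ly6c2 (362.7, against 72.97 and 10.6) and Nkg7 (277.8, against 164.9 and 86.6). Nkg7 was at 55.7 to 105.8 in WT libraries, while Gzma and Ncr1 of its list reached at most 0.78 and 0.31 in any library. Cd4 and Lck, the other tested genes of that list, were at 2.69 to 9.31 and 2.61 to 6.13 over all libraries. Pax5, Cd3g, Cd8a and Klrd1 had no read in any library.

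The sorted cells carried the transcripts of the gate. Kit was at 615.2 to 879.3 normalized CPM in Itpkb-/- and 833.97 to 910.9 in WT libraries, Ly6a (Sca-1) at 108.3 to 151.5 in Itpkb-/- and 132.7 to 161.6 in WT libraries, and Slamf1 (CD150) at 42.6 to 59.2 in Itpkb-/- and 46.8 to 56.6 in WT libraries. Transcripts of the excluded proteins were present too. Cd34 was at 203.8 to 220.2 in Itpkb-/- and 172.0 to 203.6 in WT libraries, Cd48 at 7.08 to 33.3 in Itpkb-/- and 4.65 to 13.6 in WT libraries, and Flt3 (Flk2) at 22.9 to 37.9 in Itpkb-/- and 7.21 to 31.5 in WT libraries. None of these 6 genes passed in limma without the block or in edgeR, and none had an unadjusted p under 0.05 (limma). With the block Cd48 and Flt3 rose and Kit fell (limma, adjusted p = 0.0205, 0.0569 and 0.0600), and Cd48 also rose with DESeq2. Of all genes tested 9.15% rose and 8.97% fell with the block, and 3.24% rose with DESeq2.

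The machinery has further genes outside the set. Of 54 further fork and origin genes 2 rose and none fell, 48 had positive differences and the median was 0.26, and with the block 15 rose. Of all genes tested 2.27% rose, 3.24% fell and 50.2% had positive differences, and with the block 9.15% rose. The count of 2 without the block is thus near the share over all genes. Pole, the leading-strand polymerase, averaged 130.6 ± 14.0 normalized CPM in Itpkb-/- and 90.1 ± 10.6 in WT cells (log2 difference 0.53, limma, adjusted p = 0.108). Ticrr, which helps fire origins, averaged 65.6 ± 13.3 in Itpkb-/- and 42.2 ± 3.20 in WT cells (0.61, adjusted p = 0.137 by limma). Top2a, the topoisomerase that untangles copied DNA, had a log2 difference of 0.58 that passed only with the block (limma, adjusted p = 0.190, and 0.00347 with the block). The calls of Pole and Ticrr were each lost in 5 of the 6 fits without 1 library.

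In a list of 28 other nucleotide synthesis genes, 5 rose and none fell, with a median of 0.20, where 2.27% of all genes tested rose and 3.24% fell. Mthfd2, a mitochondrial folate enzyme, averaged 20.0 ± 9.23 normalized CPM in Itpkb-/- and 8.43 ± 1.03 in WT cells (log2 difference 1.08, limma, adjusted p = 0.120). Dtymk, the thymidylate kinase that follows Tk1 and Tyms, averaged 102.2 ± 2.13 in Itpkb-/- and 73.2 ± 9.49 in WT cells (0.48, adjusted p = 0.130 by limma). Shmt2, another mitochondrial folate enzyme, averaged 147.8 ± 3.95 in Itpkb-/- and 106.5 ± 18.1 in WT cells (0.48, adjusted p = 0.137 by limma). Nme1 and Cad, the others that rose, were chosen after their values were seen and had 0.43 and 0.38. Mthfd2, Dtymk and Nme1 were each called in 1 of the 6 fits without 1 library, Shmt2 in 2 and Cad in none. Without Itpkb-/- library 2 none of the 28 genes passed, where 0.945% of all genes rose. With the block 7 rose, against 9.15% of all genes tested.

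Among 37 regulators of the G1/S step and E2F factors, 4 rose and 4 fell, while with the block 13 rose and 4 fell. Of all genes tested 2.27% rose and 3.24% fell, and with the block 9.15% rose and 8.97% fell. E2f8, an E2F repressor made in S phase, averaged 139.0 ± 26.9 normalized CPM in Itpkb-/- and 72.95 ± 16.7 in WT cells, with a log2 difference of 0.93 (SE 0.19, limma, adjusted p = 0.0432). It passed in 5 of the 6 fits without 1 library. Cdk6, a G1 kinase, had a log2 difference of 1.11, and Cdkn1c, the inhibitor p57, of -1.70 (limma, adjusted p = 0.00325 and 0.0320), and both passed in all 6. The other called genes were named after their values were seen. The inhibitor Cdkn1a (1.23) and Tfdp1 (0.57) rose, and the D cyclins Ccnd1 (-0.83) and Ccnd2 (-0.48) and Rbl2 (-0.44) fell. Of these, Ccnd1 passed in 3 of the 6 fits without 1 library, Cdkn1a, Tfdp1 and Ccnd2 in 2 and Rbl2 in none.

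Of 48 genes of G2 and mitosis 6 rose and none fell, 47 had positive differences and the median was 0.56, against 0.27 for the replication members. With the block 34 of the 48 rose. Of all genes tested 2.27% rose, 3.24% fell and 50.2% had positive differences, and with the block 9.15% rose. The leading genes were Cenpa (0.74), Plk4 (0.61) and Cdk1 (0.76), with adjusted p of 0.0642, 0.0837 and 0.113 by limma. Without Itpkb-/- library 2 the median of this list was 0.33 and none passed, where 0.945% of all genes rose. Library by library, the mean log2 level of the replication members was 6.52, 6.78 and 6.57 in Itpkb-/- and 6.18, 6.40 and 6.39 in WT libraries. That of the G2 and mitosis genes was 5.50, 6.30 and 5.94 in Itpkb-/- and 5.06, 5.60 and 5.54 in WT libraries. The replication means did not overlap between genotypes, while the mitotic mean of Itpkb-/- library 1 fell within the WT range. Whether the lists differ from each other was not tested.

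**Figure D4:**
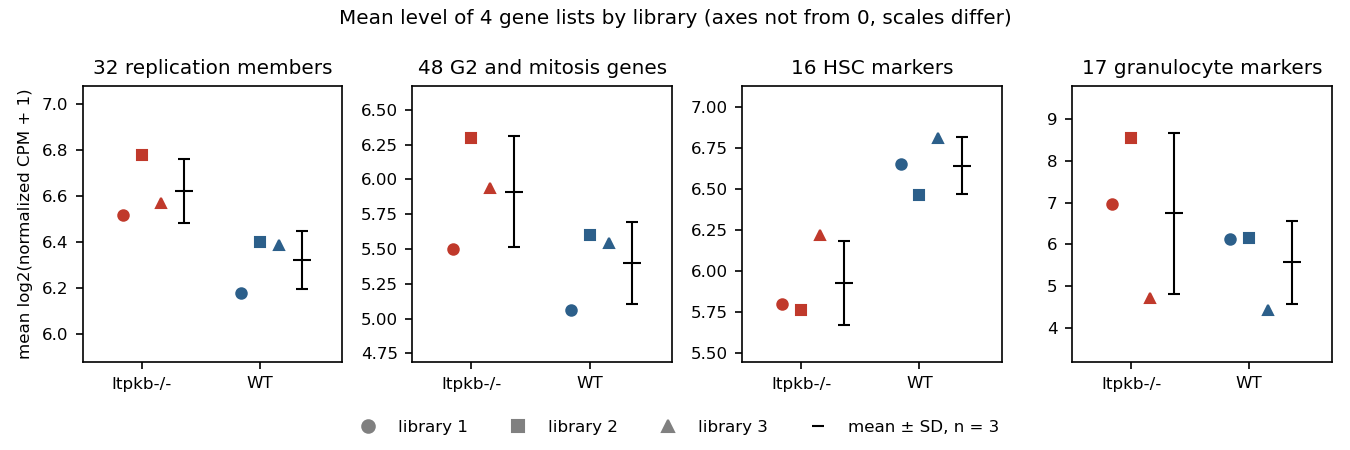
Mean log2(normalized CPM + 1) over the tested genes of 4 lists in the 3 Itpkb-/- and 3 WT libraries, with library numbers as symbols and the mean ± SD (n = 3) as black bars; axes do not start at 0 and differ in scale. The replication members lie higher in all Itpkb-/- libraries, HSC markers lie lower, and the granulocyte markers are spread most widely, with Itpkb-/- library 2 at 8.55.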

How the data were processed

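Per the labels' protocols, libraries were made from 1 to 5 ng of RNA with NuGEN Ovation chemistry, in which strand is not kept. Per the submitters' processing notes, reads went through CASAVA 1.8.2, cutadapt, TopHat2 2.0.8b (mm10), Partek and edgeR, while the series design text gives TopHat 1.4.1 and Partek 6.6. The deposited signal, called normalized CPM, is gene counts that the authors divided by 1 factor per library. All values (100%) were whole multiples of 1 step within 0.01 read, and TMM factors recomputed from the recovered reads matched the authors' within 2.4e-09. Totals were 4024203 to 7470329 reads, and 3 reads were worth 0.393 to 0.746 normalized CPM, a floor that covers counting error only.

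Genes at 1 or more in at least 3 libraries (12008) were tested with limma 3.58.1 (R 4.3.3) on log2(value + 1), with the variance trended on the mean, Benjamini-Hochberg adjusted and called at 0.15. The fit was first tried on simulated counts with 1 dispersion for all genes and no effect of the library number. That setting differs from these data, so the trial does not show how reliable the calls here are. edgeR 4.0.16 and DESeq2 1.42.0 ran on recovered reads. Across genes, deviations from the genotype mean had correlations of 0.296, 0.268 and 0.284 for libraries that share a number, where all other combinations had -0.048 or less. Deviations within a genotype cancel out, so the negative values follow in part from the positive ones and are not separate evidence. The numbers were treated as pairs on the positive correlations, a choice made from these same data. No label explains them. No library was a copy of another (chi-square over degrees of freedom of 5.7 or more within a genotype). Positions and exon lengths are from GENCODE M21.

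The members, lists and named genes were chosen with earlier results of these data known. Values per library were to be given for all members called in either fit, Pcna, Rrm2, Tyms, the MCM genes and the 3 smallest differences. The other members were to be accounted for, and the values given for Orc1, Cdc6, Hells and the rest of them were chosen after they were seen. Named from other lists were the 3 smallest p of each further pathway list, the gate genes, Mpo, Elane and S100a8. The alternatives tried were other pseudocounts, filters, scalings, tests and call limits, the block, and fits without libraries.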

Additional observations from a re-analysis of the deposited data

How the results depend on the processing

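In all alternatives the median log2 difference of the 32 members stayed positive, at 0.19 to 0.37, and none of them fell in any. The count that rose (3) was 6 with DESeq2 and 12 with the replicate block, where 3.24% and 9.15% of all genes rose. It was 0 without the mean-variance trend (1.37% of all genes) and at an adjusted p of at most 0.05 (0.616%). It was also 0 without both libraries numbered 2 (0.422%) or numbered 3 (0.404%). The member count ran from 0 to 6 without 1 library, where 0.301% to 3.09% of all genes rose. The count over all genes (661) was 343 with an average log2 level above 4 required before testing, 2176 with the block, 182 at 0.05, 387 under the study's own limits (where the design text gives 441), 111 and 96 without both libraries numbered 2 and 3, and 75 to 833 without 1 library. Among the further pathway genes the count of 21 was 10 with no filter, 13 with the average level above 4, 72 with the block, 12 with plain CPM, 5 without the trend, 3 at 0.05, 12 under the study's limits, 2 without both libraries numbered 2 and 2 without those numbered 3, and 2 to 45 without 1 library. Some of these fits hold fewer genes or libraries, and the cause of the changed counts was otherwise not tested. Of 702 alternative results for single members, 639 kept direction and call, 32 lost a call, 18 gained one and 13 changed sign. All 32 losses were in Mcm7, Prim1 and Tk1, the only 3 members with a call to lose. Most of the 639 are members that stayed uncalled, so that number does not measure how stable the 3 calls were. Alternatives that changed only the call limit kept the same differences and could not change a sign. The sign changes were in 4 members near 0: Rfc3 (0.01 with DESeq2 and with quantile normalization, 0.13 and 0.10 without Itpkb-/- replicate 1 and WT replicate 2, 0.08 without both libraries numbered 1 and 0.08 without those numbered 2), Rfc2 (0.00 and -0.08 without Itpkb-/- replicate 2 and WT replicate 3, -0.12 without both numbered 3), Chaf1b (-0.03 without Itpkb-/- replicate 3, -0.01 without both numbered 3) and Slbp (-0.08 without WT replicate 1 and -0.08 without both numbered 1). Without 1 library the differences ran from -0.12 to 0.13 in Rfc3, -0.08 to 0.28 in Rfc2, -0.03 to 0.19 in Chaf1b and -0.08 to 0.21 in Slbp. The E2F motif was in 13 genes as searched, 10 with 2 of its words and 17 with 7-letter words (TTGGCGC and TTCCCGC). Prim1, without a match as searched, is among the 17. With 3 libraries each and differences of this size, no member passed once any 1 of 4 libraries was left out (Itpkb-/- library 2 or a WT library). In those 4 fits only 0.301% to 1.13% of all genes rose. Members had 38 reads or more in each library.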
